A study of Mus musculus with 8 samples.

Results

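The genes described here are the fibroblast growth factor (FGF) ligands, their receptors and the feedback inhibitors of the pathway, chosen by symbol from the expression table of the series. The list took the *Fgf* genes with a number, *Fgfr1* to *Fgfr4*, *Fgfrl1*, *Fgfbp1*, *Fgfbp3*, *Spry1* to *Spry4*, *Spred1* to *Spred3*, *Dusp4*, *Dusp6*, *Etv4* and *Etv5*. It gave 40 of the 24346 genes in the table. By role they were 18 secreted ligands, 4 intracellular FGF homologous factors, 4 receptors, the receptor-like *Fgfrl1*, 2 FGF-binding proteins, 4 Sprouty genes, 3 Spred genes, 2 MAP kinase phosphatases and 2 ETS transcription factors.

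RNA came from mesenchymal stem/stromal cells (MSCs) of mouse bone marrow, plastic-adherent cells with osteogenic, adipogenic and chondrogenic potential, depleted here of CD11b+ and CD45+ cells. The WT cells came from *Dnmt3l*+/+ mice and the *Dnmt3l* KO cells from littermates homozygous for the tmEnls mutant allele, on a C57BL/6 background, at 8 to 16 weeks of age. The gene product, DNMT3L, is a cofactor of the DNA methyltransferases DNMT3A and DNMT3B. MSCs of 3 mice of the same sex and age were pooled for each genotype and experiment, and cells were used at passage 4. Undifferentiated MSCs grew in alphaMEM with 20% fetal bovine serum. Differentiating MSCs had been kept for 3 days in medium with 10% serum, 0.1 μM dexamethasone, 50 μM ascorbate 2-phosphate and 10 mM β-glycerophosphate. That medium was added once the cells were confluent. Induction thus also meant a glucocorticoid, less serum and further days at confluence. Each of the 4 groups held 2 libraries. Whether both libraries of a group go back to separate pools of mice is not given in the sources used here, so the p-values measure only the spread between these libraries, which may be technical.

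Values are RPKM, read counts divided by transcript length and by library size, which allows levels of different genes to be set side by side. From low values the depth was estimated at 48.1 to 67.0 M scaled reads per library. *Dnmt3l* was at 0.830 to 1.56 RPKM in the 4 WT libraries and listed at 0 in the 4 KO libraries. The paper reports that the WT reads covered only the later exons of the gene. It did not detect the canonical DNMT3L protein in cultured MSCs, so these values do not show expression of the cofactor. The abundant genes *Actb* and *Eef1a1* were listed at 0 in some groups as well, so that 0 in this table can also be a failed estimate. Each of the 12 MSC markers was above 1 RPKM in every library, and their sum was 1658 to 1823 RPKM in undifferentiated and 3135 to 4010 RPKM in differentiating MSCs. *Ly6a* (471 to 653 RPKM before and 1825 to 2603 after induction) and *Cxcl12* (63.2 to 78.3 and 350 to 588) carried most of that rise. *Cd44*, *Itgb1*, *Pdgfrb* and *Nt5e* of the same list were lower after induction in both genotypes. *Cd3e* of T cells and *Pecam1*, *Cdh5* and *Tie1* of endothelial cells were under 0.1 RPKM in every library, and the 6 endothelial markers summed to 0.543 to 4.67 RPKM. The summed markers of macrophages and leukocytes came to 20.4 to 37.4 RPKM in WT and 10.0 to 15.1 RPKM in KO libraries, a sum carried by *Lyz2* (12.8 to 26.5 RPKM in WT, 3.19 to 7.66 in KO), while *Cd14* was higher in KO than in WT libraries of the same state. The 8 osteoblast markers summed to 707 to 843 RPKM in undifferentiated WT, 1418 to 1606 in differentiating WT, 1040 to 1107 in undifferentiated KO and 802 to 824 RPKM in differentiating KO libraries. *Col1a1* and, after induction, *Ibsp* made up most of that sum, and its members differed in direction: in undifferentiated cells *Col1a1* was higher in KO (985 to 1048 RPKM against 597 to 735), and *Ibsp* (19.7 to 20.2 against 49.5 to 51.3) and *Alpl* (21.8 to 23.5 against 44.2 to 44.6) were lower, and *Sp7* was lower after induction in both genotypes. Adipocyte markers summed to 57.0 to 67.7 RPKM before and 420 to 468 RPKM after induction, and glucocorticoid-responsive genes to 286 to 298 and 1018 to 1351 RPKM. Proliferation markers summed to 154 RPKM in both undifferentiated WT libraries, 77.6 to 85.3 in differentiating WT, 211 in undifferentiated KO and 27.3 to 38.0 in differentiating KO libraries. The part of these sums in the results on FGF genes was not tested. In bulk RNA, fewer cells of a type and less RNA per cell cannot be told apart.

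FGF ligands bind receptor tyrosine kinases together with heparan sulfate, or with a Klotho protein for the hormonal ligands. The active receptor signals through FRS2, Ras and the ERK kinases, which raises the ETS factors *Etv4* and *Etv5* as well as inhibitors that act back on the pathway. Sprouty and Spred proteins restrain Ras and Raf, DUSP6 and DUSP4 remove phosphate from ERK, and FGFRL1 binds ligands without a kinase domain of its own. In the skeleton *Fgfr1* and *Fgfr2* act in osteoblast progenitors, *Fgfr3* and *Fgf18* are known from the growth plate, and *Fgf2* is a widely used growth factor for MSCs in culture.

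To show the sequences in front of the genes on which the results below turn, promoter windows were read from RefSeq (assembly GRCm38.p6, which has the mm10 coordinates). A window runs from 250 bases before to 50 bases after a transcript start, and 29 of the 40 members had at least 1 window, 37 in all. The median GC content was 62.7% over the windows of members and 52.7% over all 32851 windows. Below, *Fgf7* is the most abundant ligand (chr2:126034408-126034707, plus strand), *Fgfr2* (chr7:130266759-130267058, minus strand) and *Fgfrl1* (chr5:108693979-108694278, plus strand) rose on induction in both genotypes, and *Spry1* (chr3:37639697-37639996, plus strand) and *Fgf18* (chr11:33147351-33147650, minus strand) differed between genotypes in undifferentiated cells. Capitals mark the E-box CACGTG in *Fgfr2* and *Fgfrl1*, and the GC box GGGCGG, read as its reverse complement CCGCCC in *Fgf18*, in *Spry1* and *Fgf18*. The *Fgfrl1* window also held the GC box, left in small letters, so the capitals do not set the induced genes apart from the others. The *Fgf7* window held none of the searched motifs.
Fgf7: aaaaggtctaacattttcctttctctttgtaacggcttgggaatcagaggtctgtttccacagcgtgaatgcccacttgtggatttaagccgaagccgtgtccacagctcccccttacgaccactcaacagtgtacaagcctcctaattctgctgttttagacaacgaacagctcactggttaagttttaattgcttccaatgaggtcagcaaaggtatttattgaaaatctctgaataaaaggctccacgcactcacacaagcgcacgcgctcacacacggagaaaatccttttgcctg
Fgfr2: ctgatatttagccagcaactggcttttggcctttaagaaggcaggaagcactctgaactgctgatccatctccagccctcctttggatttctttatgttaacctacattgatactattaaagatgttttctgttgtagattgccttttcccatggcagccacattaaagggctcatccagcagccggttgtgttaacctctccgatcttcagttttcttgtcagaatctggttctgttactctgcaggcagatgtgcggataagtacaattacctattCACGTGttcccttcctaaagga
Fgfrl1: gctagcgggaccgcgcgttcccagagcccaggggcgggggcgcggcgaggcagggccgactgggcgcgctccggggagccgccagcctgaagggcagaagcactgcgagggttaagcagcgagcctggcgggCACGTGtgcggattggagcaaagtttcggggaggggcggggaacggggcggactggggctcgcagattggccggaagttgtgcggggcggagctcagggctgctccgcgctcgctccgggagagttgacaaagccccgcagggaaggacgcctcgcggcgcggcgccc
Spry1: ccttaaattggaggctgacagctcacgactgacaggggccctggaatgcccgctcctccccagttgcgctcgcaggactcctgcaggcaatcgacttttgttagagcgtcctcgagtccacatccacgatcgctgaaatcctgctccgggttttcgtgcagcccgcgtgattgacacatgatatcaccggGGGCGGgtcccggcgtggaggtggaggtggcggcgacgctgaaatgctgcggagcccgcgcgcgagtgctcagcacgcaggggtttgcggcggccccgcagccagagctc
Fgf18: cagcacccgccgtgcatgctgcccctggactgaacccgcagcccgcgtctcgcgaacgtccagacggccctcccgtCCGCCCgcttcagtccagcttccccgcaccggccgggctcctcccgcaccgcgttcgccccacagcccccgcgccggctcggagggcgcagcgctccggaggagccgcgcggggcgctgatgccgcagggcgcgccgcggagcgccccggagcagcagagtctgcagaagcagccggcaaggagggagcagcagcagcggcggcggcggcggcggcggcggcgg

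The capitals begin 28 bases after the start in *Fgfr2*, and 118, 60 and 174 bases before it in *Fgfrl1*, *Spry1* and *Fgf18*. The GC box, searched on both strands like the other motifs, stood in 23 of the 37 member windows (19 of the 29 members) and in 35.7% of all windows. The E-box stood in 4 of the 37 member windows (*Fgf6*, *Fgf21*, *Fgfr2* and *Fgfrl1*) and in 7.15% of all windows. The ETS letters CCGGAAG were in 1 of the 37 member windows (*Fgfrl1*) and in 8.86% of all windows. The AP-1 letters TGACTCA were in 1 of the 37 (*Fgf12*) and in 5.2%. The RUNX letters AACCACA were in 0 member windows and 5.27% of all windows, and the glucocorticoid receptor motif in 0 member windows and in 3 windows of all. A match describes the letters only. Several members are neighbours on their chromosome: *Fgf2* and *Spry1* lie 230 kb apart on chromosome 3, *Fgf3* and *Fgf4* 18.0 kb and *Fgf4* and *Fgf15* 31.3 kb apart on chromosome 7, *Fgf6* and *Fgf23* 48.2 kb apart on chromosome 6, and *Spry4* and *Fgf1* 237 kb apart on chromosome 18.

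In these MSCs, 25 of the 40 members reached the mean of 0.1 RPKM over the 8 libraries that was required for a test. *Fgf7* led at a mean of 104 RPKM over all libraries. *Fgfr2* (26.5 RPKM), *Fgfr1* (23.4), *Fgf2* (22.3), *Fgfrl1* (21.9), *Spred1* (18.9), *Spry1* (14.4) and *Dusp6* (14.1) followed. The next were *Etv5* (7.06 RPKM), *Spry2* (7.0), *Dusp4* (5.56), *Etv4* (2.68) and *Fgf14* (2.37). Means of *Spred3* (2.16 RPKM), *Spred2* (2.13), *Fgfbp3* (1.82), *Fgfr3* (1.72), *Fgf18* (1.54) and *Spry4* (1.24) were lower still. *Fgf10*, *Fgf13*, *Fgf11*, *Fgf22*, *Fgf21* and *Fgf1* lay between 0.161 and 0.714 RPKM. Neighbours in this order often overlapped library by library, as *Fgfr1* and *Fgf2* did.

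**Figure D1:**
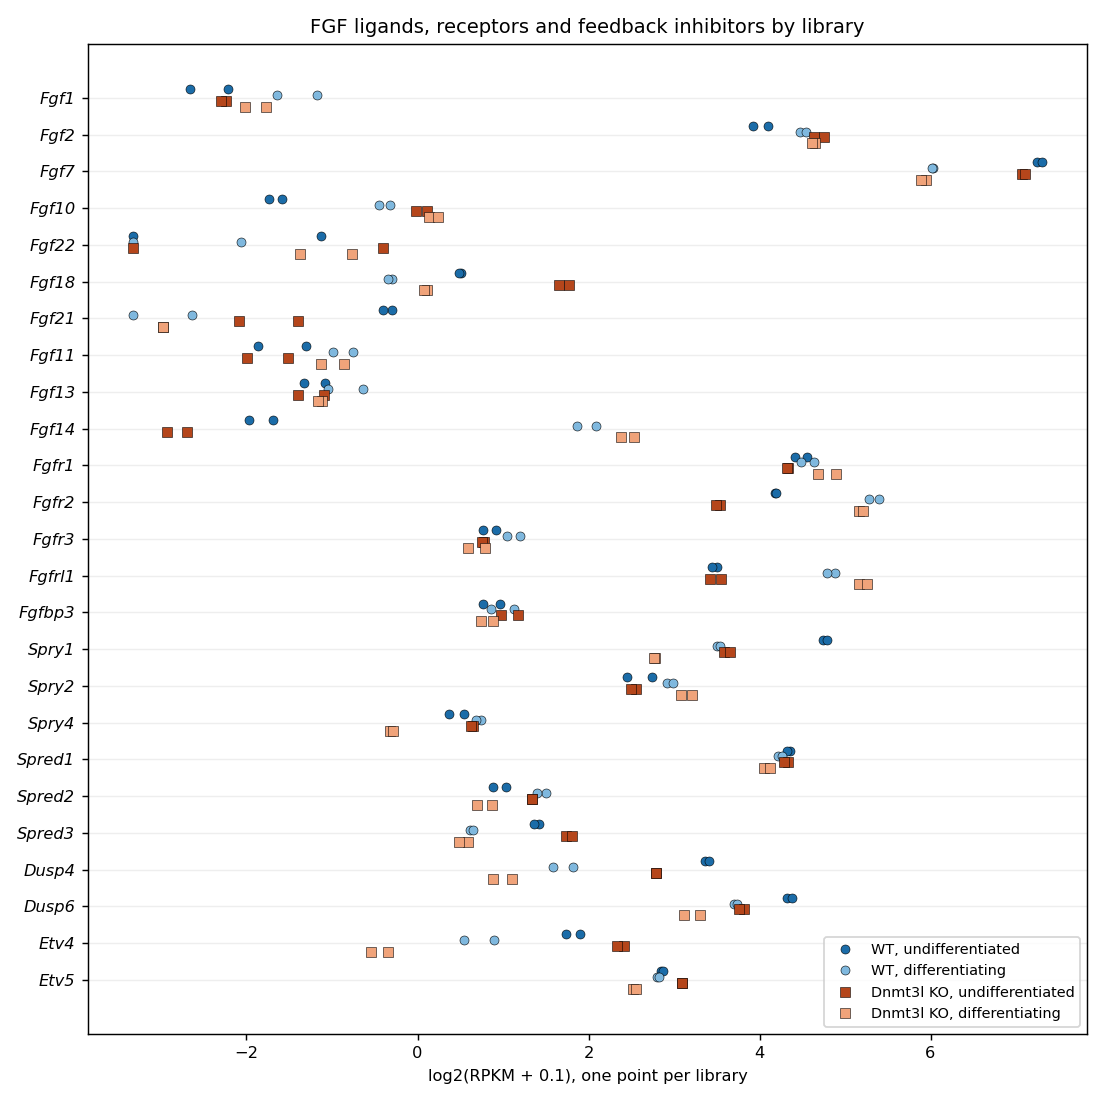
Level of the 25 tested members in each library, as log2(RPKM + 0.1) on the horizontal axis, with 1 point per library and 4 groups by colour and symbol. *Fgf7* stands highest in all 8 libraries, *Fgf14* shows the widest distance between states, and *Spry1* and *Fgf18* are apart by genotype in undifferentiated cells.

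The other 15 members were not tested. *Fgf3*, *Fgf4* and *Spry3* were listed at 0 in every library. *Fgf16*, a ligand of the *Fgf9* subfamily, reached 0.135 RPKM in a library of differentiating KO MSCs, the highest value among the 15, with group means of 0.0207 and 0.0812 RPKM in WT and 0.00355 and 0.120 RPKM in KO before and after induction. *Fgf5*, *Fgf6*, *Fgf8*, *Fgf9*, *Fgf12*, *Fgf15*, *Fgf17*, *Fgf20*, *Fgf23*, *Fgfbp1* and *Fgfr4* stayed below 0.1 RPKM in every library. For *Fgf23*, the phosphate hormone made by mature osteoblasts and osteocytes, the highest library was at 0.0415 RPKM.

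Osteogenic induction was compared first in WT MSCs. After 3 days, *Fgf7* and the inhibitors *Spry1* and *Dusp4* were at less RNA, as was the ETS factor *Etv4*, while the receptors *Fgfr2* and *Fgfrl1*, the ligand *Fgf10* and the intracellular *Fgf14* were at more. A member was called where the log2 fold change exceeded 1 in size and the p-value, from limma with Benjamini-Hochberg adjustment over all 15342 tested genes, was under 0.05. Each log2 value is a difference of log2(RPKM + 0.1), so for genes near 0.1 RPKM it is smaller than the change in RPKM itself. Of the 25 tested members 10 were called, or 40.0%, against 14.3% of all tested genes. Of these, 5 were higher (*Fgf14*, *Fgfrl1*, *Fgf10*, *Fgfr2* and *Fgf1*; 9.69% of all genes) and 5 lower (*Fgf21*, *Dusp4*, *Fgf7*, *Spry1* and *Etv4*; 4.63% of all genes). By the adjusted p alone 18 members differed, or 72.0%, against 64.4% of all genes, a share near the background. They were 10 higher and 8 lower, against 31.6% and 32.8% of all genes. The median log2 fold change of the tested members was 0.13, beside 0.00 for all genes. Because the members were chosen with results of these data known, the list as a whole was not tested. With a pseudocount of 1 RPKM in place of 0.1, 6 members and 1249 of all 15342 genes were called. Among the 8 under the adjusted p limit alone, *Fgfr3*, *Spry2* and *Spry4* lost it when a single library was left out, at up to adjusted p = 0.213, 0.100 and 0.146 (limma).

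The same induction in *Dnmt3l* KO MSCs shares no library with that in WT, though the estimate of the spread in the fit is shared. Again *Fgf7*, *Dusp4* and *Etv4* were lower and *Fgfr2*, *Fgfrl1* and *Fgf14* higher after 3 days, and here the ligand *Fgf18* and the inhibitor *Spred3* were also past both limits. Of the 25 tested members 9 were called, or 36.0%, against 22.9% of all genes. The 3 higher (*Fgf14*, *Fgfrl1* and *Fgfr2*) stood against 13.0% of all genes, and the 6 lower (*Etv4*, *Dusp4*, *Fgf18*, *Spred3*, *Fgf21* and *Fgf7*) against 9.87%. Under the adjusted p limit alone 18 members differed (72.0% of members, 72.9% of all genes), 6 higher and 12 lower, against 36.4% and 36.6% of all genes. The median log2 fold change of the tested members was -0.22. Calls shared by both genotypes were 3 of the 5 higher in WT and 3 of the 3 higher in KO, and 4 of the 5 lower in WT and 4 of the 6 lower in KO (*Dusp4*, *Etv4*, *Fgf21* and *Fgf7*). Over all tested genes, 84.3% of the higher and 81.0% of the lower calls in WT were shared, and 62.8% and 38.0% of those in KO. Of the 10 tested Sprouty, Spred, phosphatase and ETS members, 9 were lower and 1 higher in KO by the adjusted p alone. In WT 5 were lower and 3 higher. All genes stood at 36.6% lower and 36.4% higher in KO, and at 32.8% and 31.6% in WT. *Fgf11* lost the adjusted p limit when any 1 of 5 libraries was left out, at up to adjusted p = 0.176 (limma) without replicate 1 of undifferentiated KO.

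**Figure D2:**
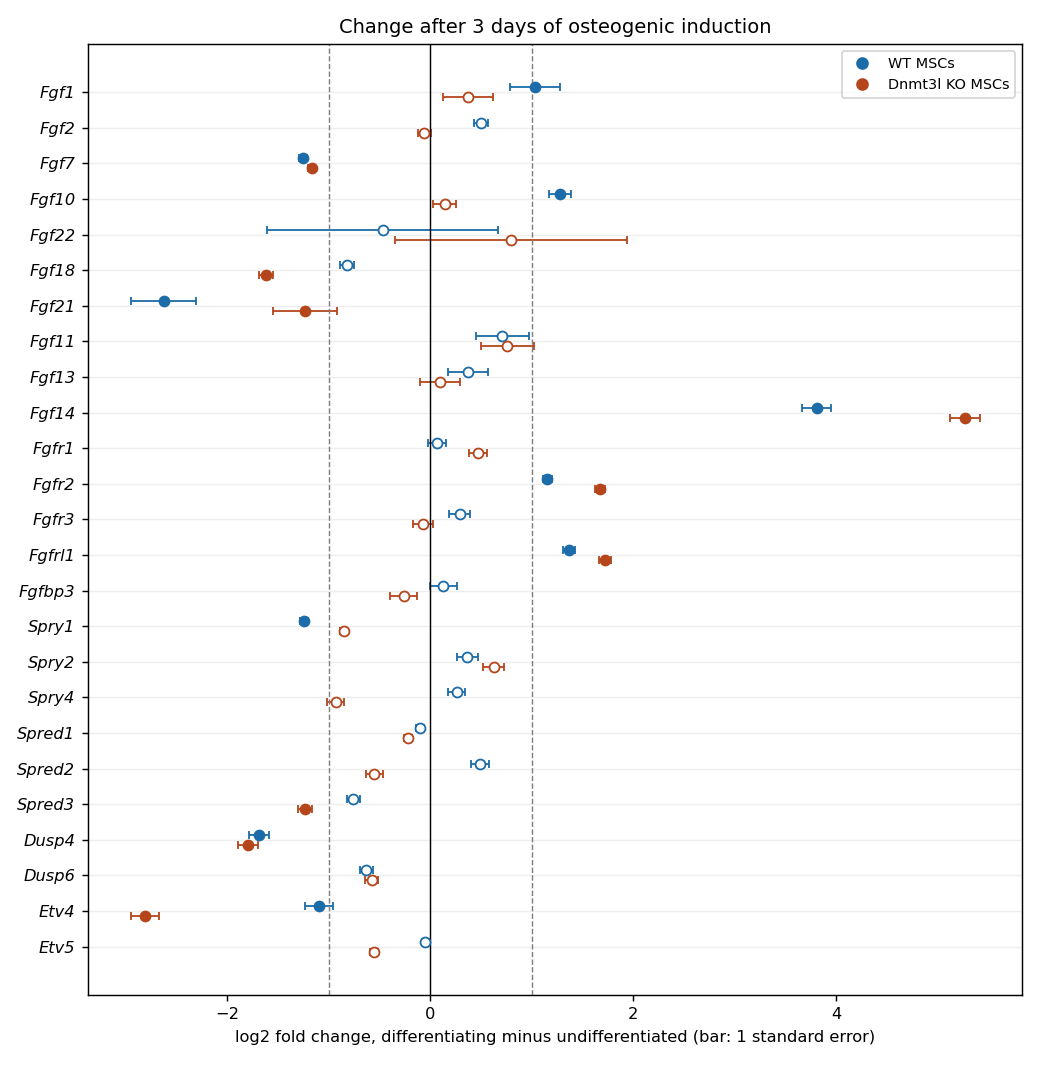
Log2 fold change of the 25 tested members after 3 days of osteogenic induction, in WT and in *Dnmt3l* KO MSCs. The horizontal axis is differentiating minus undifferentiated on the log2(RPKM + 0.1) scale, bars are 1 standard error, filled points passed both limits and dashed lines mark a log2 fold change of 1. *Fgf14* is far to the right in both genotypes, and *Etv4* lies at -1.10 in WT and -2.82 in KO.

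Genotypes were compared next, to ask how the FGF genes of *Dnmt3l* KO MSCs differed from those of WT littermates. In undifferentiated cells, *Fgf10* and *Fgf18* were higher and *Spry1* and *Fgf21* lower in KO. These 4 of 25 tested members, or 16%, compare with 1.7% of all genes, the 2 higher with 0.613% and the 2 lower with 1.09%. By the adjusted p alone 14 members differed, or 56.0%, against 32.2% of all genes. Of these 7 were higher (*Fgf2*, *Fgf10*, *Fgf18*, *Spred2*, *Spred3*, *Etv4* and *Etv5*; 14.7% of all genes) and 7 lower (*Fgf7*, *Fgf14*, *Fgf21*, *Fgfr2*, *Spry1*, *Dusp4* and *Dusp6*; 17.5% of all genes). The median log2 fold change was -0.03 over the tested members. With a pseudocount of 1 RPKM, 99 of all 15342 genes were called, and of the members only *Spry1*. Among the 10 under the adjusted p limit alone, 5 lost it when a single library was left out: *Dusp4*, *Etv4*, *Fgf7*, *Spred2* and *Spred3*, at up to adjusted p = 0.0543, 0.134, 0.0780, 0.114 and 0.0575 (limma).

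The comparison in differentiating cells used other libraries, though the fit over all 8 libraries gave both comparisons a shared estimate of the spread. Past both limits it shared 0 members with the undifferentiated state. Over all tested genes 12 of the 94 higher and 33 of the 167 lower calls in undifferentiated cells were also called in differentiating cells (12.8% and 19.8%; 5.77% and 11% of the calls there). *Spry1*, *Fgf10* and *Fgf18* kept their direction under the adjusted p limit. *Etv4* and *Spry4* were lower in KO, 2 of 25 tested members or 8.0%, against 3.3% of all genes, with 0 members higher (1.36% of all genes) and 2 lower (1.95%). By the adjusted p alone 14 members differed, or 56.0%, against 40.7% of all genes. They were 4 higher (*Fgf10*, *Fgf14*, *Fgf18* and *Fgfrl1*; 17.8% of all genes) and 10 lower (*Fgfr2*, *Fgfr3*, *Spry1*, *Spry4*, *Spred1*, *Spred2*, *Dusp4*, *Dusp6*, *Etv4* and *Etv5*; 22.9% of all genes). At that limit 8 of the 10 tested Sprouty, Spred, phosphatase and ETS members were lower in differentiating KO, and 0 were higher. All genes stood at 22.9% lower and 17.8% higher. In undifferentiated cells 3 of the 10 were lower and 4 higher, where all genes stood at 17.5% and 14.7%. The subgroup was not tested as a set. The median log2 fold change of the tested members was -0.15, beside -0.01 for all genes. With a pseudocount of 1 RPKM, 0 members and 234 of all 15342 genes were called in this limma fit. In it 7772 of all genes had an unadjusted p under 0.05. *Fgf14*, *Fgfr2*, *Fgfr3* and *Spred1* lost the adjusted p limit when a single library was left out, at up to adjusted p = 0.205, 0.166, 0.0946 and 0.125 (limma).

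**Figure D3:**
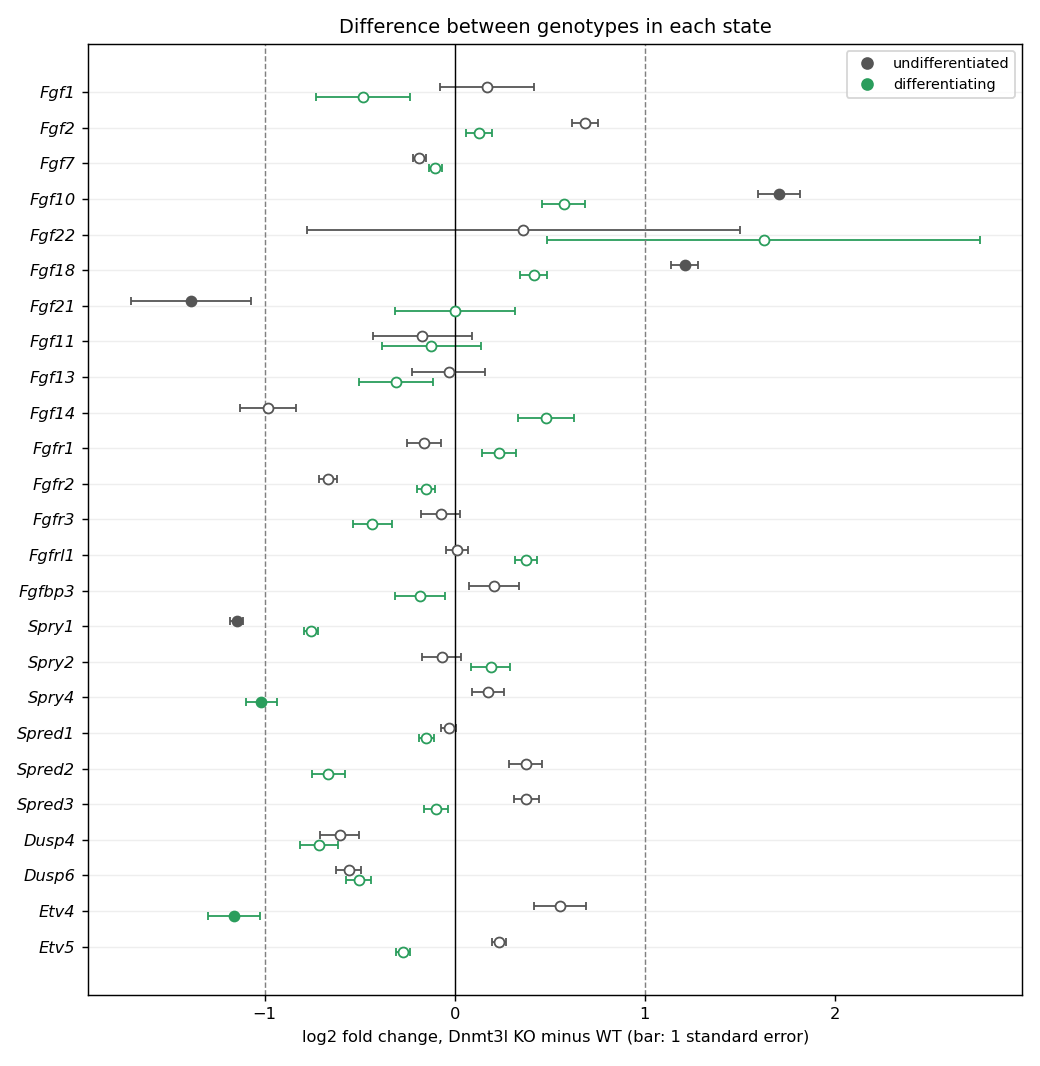
Log2 fold change of the 25 tested members between *Dnmt3l* KO and WT MSCs, in undifferentiated and in differentiating cells. The horizontal axis is KO minus WT on the log2(RPKM + 0.1) scale, bars are 1 standard error, filled points passed both limits and dashed lines mark a log2 fold change of 1. *Fgf10*, *Fgf18*, *Spry1* and *Fgf21* are filled in undifferentiated cells, *Etv4* and *Spry4* in differentiating cells, and the wide bars of *Fgf22* reflect libraries listed at 0.

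Whether the genotype difference changed with induction was tested as an interaction, the induction change in KO minus that in WT. *Etv4*, *Spry4*, *Fgf10* and *Spred2* were past both limits with a lower change in KO, and *Fgf14* with a higher change. These 5 of 25 tested members, or 20.0%, compare with 6.17% of all genes, the 1 higher with 2.76% and the 4 lower with 3.42%. Under the adjusted p limit alone 12 members differed, or 48.0%, against 39.4% of all genes. Of these 4 were higher (*Fgf14*, *Fgfr2*, *Fgfrl1* and *Spry1*; 19.4% of all genes) and 8 lower (*Etv4*, *Spry4*, *Fgf10*, *Spred2*, *Fgf18*, *Fgf2*, *Etv5* and *Spred3*; 20.0% of all genes). With a pseudocount of 1 RPKM, 479 of all 15342 genes were called, and of the members only *Etv4*. *Fgfrl1* lost the adjusted p limit when any 1 of 4 libraries was left out, at up to adjusted p = 0.0658 (limma).

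Over the 5 comparisons 14 of the 25 tested members (56.0%) were called at least once, against 26.5% of all tested genes. The 11 called in none were *Fgf2*, *Fgf11*, *Fgf13*, *Fgf22*, *Fgfbp3*, *Fgfr1*, *Fgfr3*, *Spry2*, *Spred1*, *Dusp6* and *Etv5*.

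Among the secreted ligands, *Fgf7* (keratinocyte growth factor, made by mesenchymal cells for the epithelial form of FGFR2) and *Fgf2* made up 96.7% to 98.7% of the summed ligand RPKM in each library. The summed ligands were at 169 and 177 RPKM in undifferentiated WT, 89.1 and 89.5 in differentiating WT, 167 and 167 in undifferentiated KO and 89.6 and 86.3 RPKM in differentiating KO libraries. The sum was thus lower in differentiating libraries, with no overlap between states.

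*Fgf7* was at 151 and 158 RPKM in undifferentiated WT, 64.9 and 64.4 in differentiating WT, 135 and 137 in undifferentiated KO and 61.6 and 59.1 RPKM in differentiating KO libraries. Every differentiating library was below every undifferentiated library. The fall was 2.39-fold in WT (log2 fold change -1.26 ± 0.04 SE, adjusted p = 2.5e-06, limma) and 2.25-fold in KO (-1.17 ± 0.04, adjusted p = 1.6e-06, limma). The interaction, 0.08 with a 95% interval of -0.04 to 0.21, did not pass. In undifferentiated cells KO was at 0.879 times the WT level (log2 -0.19 ± 0.04).

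*Fgf2*, basic FGF, had 15.0 and 17.0 RPKM in undifferentiated WT, 22.2 and 23.1 in differentiating WT, 26.8 and 24.8 in undifferentiated KO and 25.0 and 24.5 RPKM in differentiating KO libraries. The undifferentiated WT libraries stood below the other 6, and the KO libraries overlapped between states. KO was 1.61-fold above WT in undifferentiated cells (log2 0.69 ± 0.07 SE, adjusted p = 0.00157, limma). *Fgf2* rose 1.42-fold on induction in WT (log2 0.50 ± 0.07, adjusted p = 0.00103), and in KO the change was -0.06 with a 95% interval of -0.22 to 0.11. The interaction passed the adjusted p limit at -0.56 ± 0.10 (adjusted p = 0.00672, limma). *Fgf7* as a share of the summed ligands was 89.1% and 89.4% in undifferentiated WT and 80.8% and 82.3% in undifferentiated KO libraries, and 68.4% to 72.9% after induction.

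*Fgf2* overlaps *Nudt6*, a gene on the opposite strand, over 640 exonic bases, and alignment was stated to be strand-specific. *Nudt6* was at 11.3 and 11.8 RPKM in undifferentiated WT, 17.0 and 15.4 in differentiating WT, 20.7 and 17.9 in undifferentiated KO and 18.0 and 18.8 RPKM in differentiating KO libraries. Like *Fgf2*, it was lowest in undifferentiated WT MSCs, and the ratio of *Fgf2* to *Nudt6* stayed between 1.29 and 1.51 in the 8 libraries. The part of *Nudt6* reads in the *Fgf2* values was not tested.

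*Fgf10*, a mesenchymal ligand of the *Fgf7* subfamily, was low. It had 0.233 and 0.201 RPKM in undifferentiated WT, 0.634 and 0.698 in differentiating WT, 0.982 and 0.885 in undifferentiated KO and 0.994 and 1.08 RPKM in differentiating KO libraries. The undifferentiated WT libraries were lowest, and KO libraries of both states stood above all WT libraries. KO was 4.31-fold above WT in undifferentiated cells (log2 1.71 ± 0.11 SE, adjusted p = 0.000502, limma) and 1.56-fold above WT after induction (0.57 ± 0.11, adjusted p = 0.0101). *Fgf10* rose 3.07-fold in WT (1.27 ± 0.11, adjusted p = 0.000158), and in KO the change was 0.14 with a 95% interval of -0.13 to 0.41. The interaction was -1.13 ± 0.16 (adjusted p = 0.00349, limma). Under quantile normalization the WT induction value was 0.95, below the fold limit.

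*Fgf18*, a ligand of bone and cartilage development, had 1.33 and 1.30 RPKM in undifferentiated WT, 0.714 and 0.684 in differentiating WT, 3.04 and 3.31 in undifferentiated KO and 0.981 and 0.952 RPKM in differentiating KO libraries. No groups overlapped, with undifferentiated KO highest and differentiating WT lowest. KO exceeded WT 2.42-fold before induction (log2 1.21 ± 0.07 SE, adjusted p = 0.000360, limma) and 1.38-fold after it (0.42 ± 0.07, adjusted p = 0.00684). *Fgf18* fell 3.28-fold in KO (-1.62 ± 0.07, adjusted p = 5.6e-06) and 1.88-fold in WT (-0.82 ± 0.07, adjusted p = 0.000155). The interaction, -0.80 ± 0.10, passed the adjusted p limit only (adjusted p = 0.00267, limma). The summed chondrocyte markers were also lower after induction. They were at 132 to 147 RPKM in undifferentiated, 48.7 to 53.7 in differentiating WT and 14.5 to 15.99 RPKM in differentiating KO libraries. The last sum was below WT, where *Fgf18* was above it. *Col2a1* made up most of the sum in undifferentiated (119 to 134 RPKM) and differentiating WT libraries (39.1 and 45.1 RPKM). In differentiating KO libraries *Col2a1* was at 9.40 and 7.21 RPKM. *Sox9* of the same list was higher after induction (1.39 to 2.49 RPKM before, 4.09 to 6.53 after), *Acan*, *Col9a1* and *Matn1* were under 0.1 RPKM in every library, and the part of these markers in the *Fgf18* values was not tested.

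*Fgf21*, a hormonal ligand best known from liver and fat, had 0.712 and 0.655 RPKM in undifferentiated WT, 0.0601 and 0 in differentiating WT, 0.279 and 0.136 in undifferentiated KO and 0.0267 and 0.0271 RPKM in differentiating KO libraries. All 4 differentiating libraries were at or below the level that 3 reads would give (0.0600 to 0.0836 RPKM, counting error only), so no fold is given for induction. Undifferentiated WT libraries were highest. The induction values were -2.63 ± 0.32 in WT (adjusted p = 0.000613, limma) and -1.23 ± 0.32 in KO (adjusted p = 0.0124), and depended on the pseudocount, ranging from -4.71 to -0.71 in WT over the alternatives. In undifferentiated cells the difference of KO from WT was -1.39 ± 0.32 (adjusted p = 0.0211, limma). That call was lost without replicate 1 or 2 of undifferentiated WT (adjusted p = 0.0892 and 0.0847), without replicate 2 of undifferentiated KO (0.0898) and with a pseudocount of 0.01 RPKM (0.189). The KO induction call was lost without replicate 1 of undifferentiated KO (-0.89, adjusted p = 0.0569).

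*Fgf1*, acidic FGF, had 0.115 and 0.0578 RPKM in undifferentiated WT, 0.341 and 0.220 in differentiating WT, 0.112 and 0.103 in undifferentiated KO and 0.193 and 0.147 RPKM in differentiating KO libraries. It was 3.25-fold higher after induction in WT (log2 1.03 ± 0.25 SE, adjusted p = 0.0114, limma), with no overlap between the states. Without replicate 2 of undifferentiated or replicate 1 of differentiating WT the value was 0.80 in each case (adjusted p = 0.0518 and 0.0524), and it was 0.72 under quantile normalization and 0.93 under median centring, below the fold limit in each. *Fgf22* was listed at 0 in 3 libraries, 1 each of undifferentiated WT, differentiating WT and undifferentiated KO, and reached 0.657 RPKM in the other undifferentiated KO library. Its values overlapped between most groups, and no comparison passed.

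*Fgf14* encodes an intracellular FGF homologous factor, a relative of the ligands that is not secreted and binds voltage-gated sodium channels. It had 0.210 and 0.156 RPKM in undifferentiated WT, 4.15 and 3.54 in differentiating WT, 0.0316 and 0.0540 in undifferentiated KO and 5.11 and 5.67 RPKM in differentiating KO libraries. The states were far apart in both genotypes, with undifferentiated KO lowest and differentiating KO highest. The rise was 21.0-fold in WT (log2 3.80 ± 0.15 SE, adjusted p = 6.2e-06, limma). In KO the log2 value was 5.27 ± 0.15 (adjusted p = 1.2e-06, limma), with 2.61 to 6.71 over the alternatives. No fold is given for KO, since its undifferentiated libraries were near the level that 3 reads would give (0.0132 to 0.0183 RPKM). The interaction was 1.46 ± 0.21 (adjusted p = 0.00376, limma) and ranged from 0.58 to 2.38 over the alternatives, since the low undifferentiated KO level enters it with the pseudocount. Undifferentiated KO was below WT by the adjusted p only (-0.98 ± 0.15, adjusted p = 0.00561, limma), with -1.89 to -0.18 over the alternatives and an adjusted p of 0.121 at a pseudocount of 1 RPKM.

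The span of *Fgf14* (chromosome 14, 123974441 to 124677686, minus strand) overlaps *Itgbl1* on the opposite strand, though the annotated exons share 0 bases. *Itgbl1*, an integrin-like secreted protein, was at 12.2 and 13.6 RPKM in undifferentiated WT, 234 and 226 in differentiating WT, 4.84 and 5.83 in undifferentiated KO and 250 and 244 RPKM in differentiating KO libraries. Its groups stood in the same order as those of *Fgf14*, which was at 0.653% to 2.32% of the *Itgbl1* level in each of the 8 libraries. Alignment was stated to be strand-specific, and the part of *Itgbl1* reads in the *Fgf14* values was not tested.

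**Figure D4:**
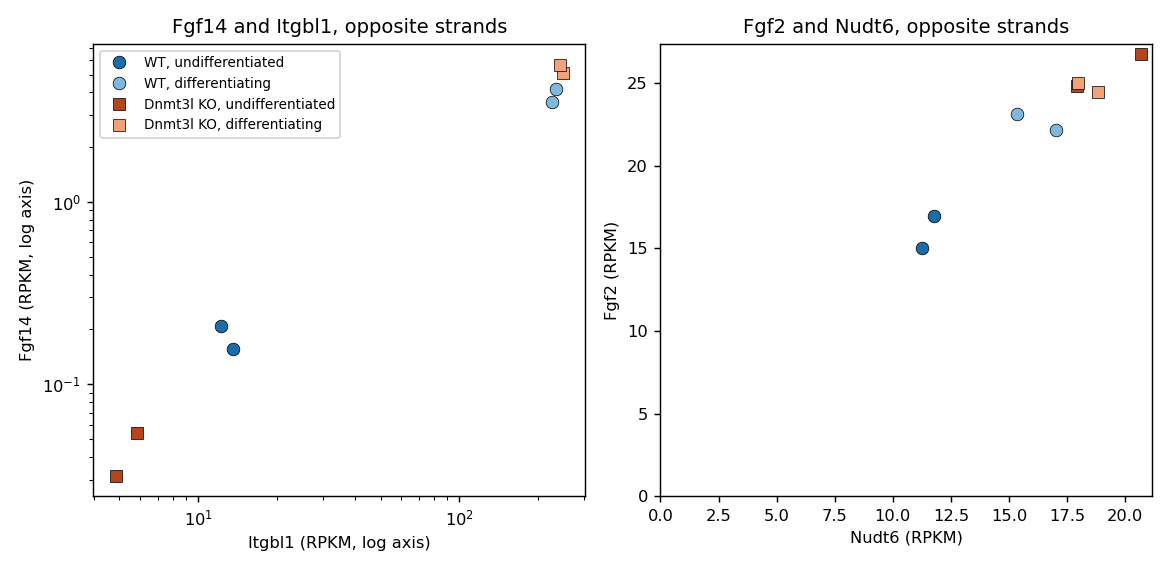
RPKM of *Fgf14* against *Itgbl1* (left, both axes logarithmic) and of *Fgf2* against *Nudt6* (right, linear axes), the pairs of genes on opposite strands, with 1 point per library. Differentiating libraries are at the upper right of the left panel at 226 to 250 RPKM of *Itgbl1*, and the undifferentiated WT libraries are at the lower left of the right panel at 11.3 and 11.8 RPKM of *Nudt6*.

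The other tested homologous factors were low. *Fgf11* was at 0.151 to 0.305 RPKM in undifferentiated and 0.358 to 0.491 RPKM in differentiating libraries, and *Fgf13* at 0.281 to 0.544 RPKM over all libraries. *Fgf11* was 0.76 ± 0.26 higher after induction in KO on the log2 scale (adjusted p = 0.0382, limma), and in WT the value was 0.71 ± 0.26, which did not pass. Leaving out replicate 1 of undifferentiated KO took the KO value to 0.52 (adjusted p = 0.176).

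Of the 4 receptors, *Fgfr1* and *Fgfr2* held 95.1% or more of the summed receptor RPKM in every library, and *Fgfr4* was at 0.00691 RPKM or less. *Fgfr2* had 18.0 and 18.1 RPKM in undifferentiated WT, 42.0 and 38.7 in differentiating WT, 11.5 and 11.1 in undifferentiated KO and 35.8 and 36.8 RPKM in differentiating KO libraries. Undifferentiated KO libraries were lowest and no groups overlapped. The receptor rose 2.23-fold in WT (log2 1.15 ± 0.05 SE, adjusted p = 7.2e-06, limma) and 3.20-fold in KO (1.67 ± 0.05, adjusted p = 1.2e-06). In undifferentiated cells KO was at 0.628 times the WT level (-0.67 ± 0.05, adjusted p = 0.000569). The interaction of 0.52 ± 0.07 passed the adjusted p limit only (adjusted p = 0.00267, limma). After induction the difference was -0.15 with a 95% interval of -0.26 to -0.04, and its adjusted p was 0.166 without replicate 1 of differentiating WT.

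*Fgfr1* had 23.4 and 21.3 RPKM in undifferentiated WT, 24.7 and 22.2 in differentiating WT, 20.0 and 19.9 in undifferentiated KO and 25.6 and 29.7 RPKM in differentiating KO libraries. The WT states overlapped, and differentiating KO was highest. *Fgfr1* rose 1.39-fold in KO (log2 0.47 ± 0.09 SE, adjusted p = 0.00357, limma), and the WT change was 0.07 with a 95% interval of -0.15 to 0.29. The ratio of *Fgfr2* to *Fgfr1* was 0.767 and 0.851 in undifferentiated WT, 1.70 and 1.74 in differentiating WT, 0.578 and 0.558 in undifferentiated KO and 1.40 and 1.24 in differentiating KO libraries. *Fgfr2* was thus below *Fgfr1* in every undifferentiated library and above it in every differentiating library, and each KO ratio was below the WT ratios of its state.

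*Fgfrl1* had 11.2 and 10.8 RPKM in undifferentiated WT, 29.3 and 27.6 in differentiating WT, 11.6 and 10.6 in undifferentiated KO and 35.8 and 38.2 RPKM in differentiating KO libraries. The undifferentiated genotypes overlapped and the differentiating KO libraries were highest. *Fgfrl1* rose 2.58-fold in WT (log2 1.36 ± 0.06 SE, adjusted p = 9.4e-06, limma) and 3.32-fold in KO (1.72 ± 0.06, adjusted p = 2.3e-06). After induction KO was 1.30-fold above WT (0.38 ± 0.06, adjusted p = 0.00518). The difference between genotypes in undifferentiated cells was 0.01 with a 95% interval of -0.13 to 0.16. *Fgfr3* was at 1.40 to 2.2 RPKM and *Fgfbp3*, a secreted binding protein, at 1.57 to 2.15 RPKM over all libraries. For *Fgfr3*, KO was 0.43 ± 0.10 below WT after induction on the log2 scale (adjusted p = 0.0188, limma), which without replicate 1 of differentiating WT was 0.0946. *Fgfbp3* passed in no comparison.

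Among the Sprouty genes, *Spry1* was the most abundant in undifferentiated WT MSCs. It had 26.8 and 27.6 RPKM in undifferentiated WT, 11.3 and 11.5 in differentiating WT, 11.9 and 12.5 in undifferentiated KO and 6.73 and 6.69 RPKM in differentiating KO libraries. Undifferentiated KO was close to differentiating WT, although the groups did not overlap, and differentiating KO was lowest. KO was at 0.449 times the WT level in undifferentiated cells (log2 -1.15 ± 0.04 SE, adjusted p = 5.6e-05, limma) and at 0.589 times after induction (-0.76 ± 0.04, adjusted p = 0.000331). Induction lowered *Spry1* 2.38-fold in WT (-1.25 ± 0.04, adjusted p = 2.7e-06) and 1.82-fold in KO (-0.85 ± 0.04, adjusted p = 5.0e-06). The interaction was 0.39 ± 0.05 (adjusted p = 0.00299, limma), with a smaller fall in KO.

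*Spry4* had 1.36 and 1.19 RPKM in undifferentiated WT, 1.58 and 1.51 in differentiating WT, 1.46 and 1.44 in undifferentiated KO and 0.701 and 0.722 RPKM in differentiating KO libraries. The differentiating KO libraries stood apart from the other 6. KO was at 0.461 times the WT level after induction (log2 -1.02 ± 0.08 SE, adjusted p = 0.000933, limma), just past the fold limit, and without replicate 1 of differentiating WT or of differentiating KO the value was -0.98 and -0.998, short of it. *Spry4* fell 2.04-fold on induction in KO (-0.93 ± 0.08, adjusted p = 0.000105). In WT it was 0.26 ± 0.08 higher (adjusted p = 0.0343), which turned to -0.01 under quantile normalization. The interaction was -1.19 ± 0.12 (adjusted p = 0.00139, limma).

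*Spry2* had 5.34 and 6.57 RPKM in undifferentiated WT, 7.46 and 7.86 in differentiating WT, 5.75 and 5.54 in undifferentiated KO and 8.34 and 9.17 RPKM in differentiating KO libraries. It was the 1 member of the feedback group higher on induction in KO (1.55-fold, log2 0.62 ± 0.10 SE, adjusted p = 0.00174, limma). In WT the value was 0.36 ± 0.10 (adjusted p = 0.0205), and 0.33 without replicate 2 of differentiating WT (adjusted p = 0.100). Genotypes differed by -0.07 before and 0.19 after induction, with 95% intervals of -0.32 to 0.18 and -0.06 to 0.44.

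The Spred genes, Sprouty-related inhibitors of Ras and Raf, moved in different ways. *Spred2* had 1.94 and 1.75 RPKM in undifferentiated WT, 2.72 and 2.54 in differentiating WT, 2.42 and 2.42 in undifferentiated KO and 1.52 and 1.73 RPKM in differentiating KO libraries. It rose with induction in WT (1.42-fold, log2 0.49 ± 0.09 SE, adjusted p = 0.00332, limma) and fell in KO (1.49-fold, -0.55 ± 0.09, adjusted p = 0.00145). The interaction was -1.04 ± 0.12 (adjusted p = 0.00216, limma). Without replicate 2 of undifferentiated WT, replicate 1 of differentiating WT or replicate 1 of differentiating KO it was -0.97, -0.99 and -0.95, short of the fold limit.

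*Spred3* had 2.58 and 2.48 RPKM in undifferentiated WT, 1.43 and 1.47 in differentiating WT, 3.24 and 3.40 in undifferentiated KO and 1.41 and 1.30 RPKM in differentiating KO libraries. It fell 2.45-fold in KO (log2 -1.24 ± 0.06 SE, adjusted p = 1.1e-05, limma) and 1.74-fold in WT (-0.76 ± 0.06, adjusted p = 0.000141), with an interaction of -0.48 ± 0.09 (adjusted p = 0.00967). *Spred1*, the most abundant Spred gene, had 18.5 to 20.4 RPKM in WT and undifferentiated KO libraries and 16.5 and 17.3 RPKM in differentiating KO libraries. Its fall on induction in KO was 1.17-fold (-0.22 ± 0.04, adjusted p = 0.00229, limma).

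The phosphatases *Dusp4*, which acts in the nucleus, and *Dusp6*, which acts on ERK in the cytoplasm, were lower in KO in both states. *Dusp4* had 10.2 and 10.5 RPKM in undifferentiated WT, 2.91 and 3.43 in differentiating WT, 6.79 and 6.78 in undifferentiated KO and 2.04 and 1.74 RPKM in differentiating KO libraries. Induction lowered it 3.28-fold in WT (log2 -1.69 ± 0.10 SE, adjusted p = 3.3e-05, limma) and 3.59-fold in KO (-1.79 ± 0.10, adjusted p = 1.4e-05). KO differed from WT by -0.61 ± 0.10 before (adjusted p = 0.00769, and 0.0543 without replicate 2 of undifferentiated WT) and by -0.71 ± 0.10 after induction (adjusted p = 0.00361). The interaction was -0.11 with a 95% interval of -0.46 to 0.24.

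*Dusp6* had 19.9 and 20.7 RPKM in undifferentiated WT, 13.0 and 13.2 in differentiating WT, 14.1 and 13.5 in undifferentiated KO and 9.80 and 8.59 RPKM in differentiating KO libraries. Like *Spry1*, it was highest in undifferentiated WT and lowest in differentiating KO. KO was at 0.678 times the WT level before induction (log2 -0.56 ± 0.07 SE, adjusted p = 0.00274, limma) and at 0.704 times after it (-0.51 ± 0.07, adjusted p = 0.00293). Induction lowered it 1.55-fold in WT (-0.63 ± 0.07, adjusted p = 0.000338) and 1.5-fold in KO (-0.58 ± 0.07, adjusted p = 0.000321). The interaction was 0.05 with a 95% interval of -0.18 to 0.28.

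The ETS factors *Etv4* and *Etv5*, both transcribed in response to FGF signals, crossed between genotypes. *Etv4* had 3.23 and 3.63 RPKM in undifferentiated WT, 1.35 and 1.76 in differentiating WT, 5.24 and 4.93 in undifferentiated KO and 0.688 and 0.586 RPKM in differentiating KO libraries. The highest and the lowest group were both KO. *Etv4* fell 7.98-fold in KO (log2 -2.82 ± 0.14 SE, adjusted p = 8.4e-06, limma) and 2.21-fold in WT (-1.10 ± 0.14, adjusted p = 0.000736). KO was at 0.410 times the WT level after induction (-1.16 ± 0.14, adjusted p = 0.00229), and 1.48-fold above WT before it (0.55 ± 0.14, adjusted p = 0.0281, and 0.134 without replicate 1 of undifferentiated KO). The interaction was -1.71 ± 0.20 (adjusted p = 0.00194, limma). Without replicate 2 of differentiating WT the genotype difference after induction was -0.98, and without replicate 1 of differentiating WT the WT induction value was -0.93, both short of the fold limit.

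*Etv5* had 7.10 and 7.23 RPKM in undifferentiated WT, 6.84 and 6.98 in differentiating WT, 8.45 and 8.44 in undifferentiated KO and 5.62 and 5.80 RPKM in differentiating KO libraries. Its groups stood in the same order as those of *Etv4*, over a narrower range. The difference of KO from WT was 0.23 ± 0.04 before induction (adjusted p = 0.00598, limma) and -0.27 ± 0.04 after it (adjusted p = 0.00305). *Etv5* fell 1.48-fold in KO (log2 -0.56 ± 0.04 SE, adjusted p = 2.5e-05), and the WT change was -0.05 with a 95% interval of -0.14 to 0.04. The interaction was -0.50 ± 0.05 (adjusted p = 0.00143, limma).

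**Figure D5:**
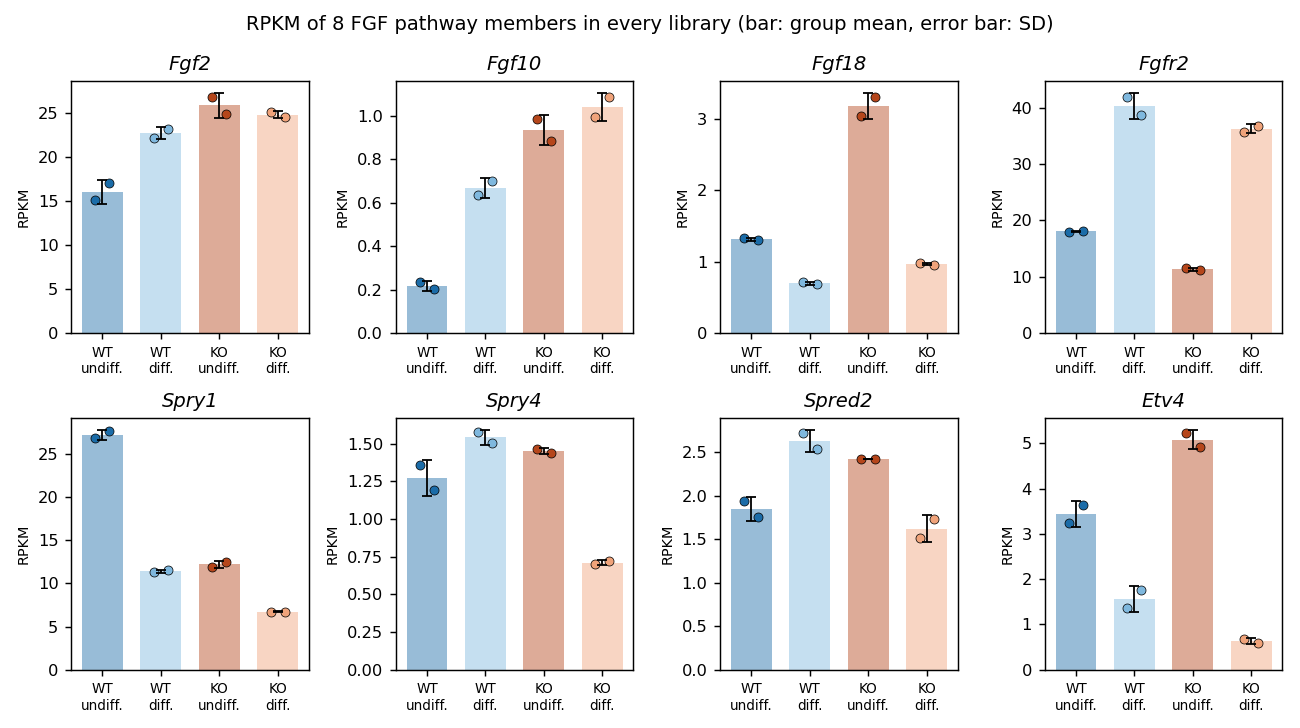
RPKM of *Fgf2*, *Fgf10*, *Fgf18*, *Fgfr2*, *Spry1*, *Spry4*, *Spred2* and *Etv4* in each library, with a panel per gene and RPKM on a linear vertical axis from 0. Points are libraries, bars the means of the 2 libraries of a group and error bars the SD. *Spry1* is highest in undifferentiated WT at 26.8 and 27.6 RPKM, and *Etv4* is both highest and lowest in KO.

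Further genes of the pathway were taken from 4 lists of 86 genes outside the members, of which 80 were tested. In undifferentiated cells 3 were called between genotypes (3.75% of the 80, against 1.7% of all tested genes): *Egr1*, an early ERK-responsive factor, at -1.25 (adjusted p = 0.000841, limma), the collagenase *Mmp13* at -1.12 (adjusted p = 0.00106), and the heparan sulfate proteoglycan *Hspg2* at 1.20 (adjusted p = 0.00529). In differentiating cells 1 was called (1.25%, against 3.3% of all genes), the FGF23 glycosyltransferase *Galnt3*, at 0.422 RPKM in KO and 1.05 RPKM in WT (log2 -1.15, adjusted p = 0.00218, limma), and 0 were called without replicate 2 of differentiating KO (57 of the 80 had an unadjusted p under 0.05 with all libraries). Induction called 23 in WT (28.7%, against 14.3% of all genes) and 28 in KO (35.0%, against 22.9%). The interaction called 3 (3.75%, below the 6.17% of all genes), namely *Hspg2* (-1.59), *Fosl1* (-1.16) and *Epha2* (-1.07). In differentiating cells, by the adjusted p alone, 11 of the 80 were higher and 39 lower in KO, where 17.8% and 22.9% of all genes were.

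The receptor-proximal and Ras/ERK cascade list of 27 genes held few calls: *Rps6ka2*, an ERK-activated kinase, fell in WT (log2 -1.15) and KO (-1.57), and *Hras* in KO (-1.20). These were 3.7% of the list in WT and 7.41% in KO, against 14.3% and 22.9% of all genes. No gene of that list was called between genotypes by limma, where 1.7% of all genes were in undifferentiated and 3.3% in differentiating cells. By the adjusted p alone 3 differed in undifferentiated cells (11.1%, against 32.2% of all genes). In differentiating cells 15 did (55.6%, against 40.7%). The unadjusted limma p was under 0.05 for 8 and 20 of them. Of 20 ERK-responsive genes, 10 were called for induction in WT (4 higher, 6 lower) and 12 in KO (6 higher, 6 lower), or 50.0% and 60.0%. Over all genes the shares were 14.3% in WT (9.69% higher, 4.63% lower) and 22.9% in KO (13.0% higher, 9.87% lower). *Mmp13* (log2 2.33 in WT and 3.06 in KO) and *Spsb1* (1.95 and 2.55) rose and *Phlda1* (-1.88 and -2.82) fell, and *Ier3* in WT (-1.91) and *Epha2* in KO (-2.53) were the others among the 4 largest changes. The Klotho and heparan sulfate list had 26 genes, 23 tested, of which 9 were called in WT (4 higher, 5 lower) and 11 in KO (5 higher, 6 lower). Those were 39.1% in WT and 47.8% in KO, against the same 14.3% and 22.9% of all genes. *Gpc1*, a glypican that binds FGF2, fell from 74.7 to 21.0 RPKM in WT and from 59.3 to 14.7 RPKM in KO (log2 -1.83 and -2.01), and the sulfotransferase *Hs6st2* fell by 1.47 and 1.77 on the log2 scale. The sulfatase *Sulf2* rose by 1.31 and 1.77, the sulfotransferase *Hs3st1* by 1.91 in KO, and *Gpc3* by 1.47 in WT, from 0.0144 to 0.219 RPKM. In the FGF23 and phosphate list of 13 genes, 10 tested, the 3 called were lower in both genotypes: the phosphate transporter *Slc20a1* (log2 -2.75 in WT and -3.38 in KO), *Galnt3* (-1.82 and -2.32) and *Enpp1*, which makes pyrophosphate (-1.12 and -1.63).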

How the data were processed

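The authors depleted ribosomal RNA, sequenced strand-specific libraries as 50 bp single-end reads and aligned them to mm10 with TopHat2. The deposited RPKM values per gene and library came from Cuffdiff. TopHat2 2.1.0 and Cufflinks 2.2.1 stand in the submitters' processing notes, and the Cuffdiff version is not given in the sources used here. All 8 columns belonged to a sample.

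The 15342 of 24346 genes whose mean over the libraries reached 0.1 RPKM were transformed as log2(RPKM + 0.1) and fitted over the 4 groups with limma 3.58.1 in R 4.3.3 with a variance trend, with Benjamini-Hochberg adjustment over all kept genes. The fit had 4 residual degrees of freedom and was tested on simulated data. Calls needed a log2 fold change over 1 in size and an adjusted p under 0.05. Errors are standard errors. Members and lists were chosen with earlier results of these data known. All 25 tested members are named, and at most 4 genes per further list and comparison by size of change.

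Depth was estimated from the steps between low values of 2895 genes with a single transcript. Of 3966 low values 66.1% were whole reads within 0.05, where evenly spread values would give 10%. Depth and length correction were chosen to make these same values whole, so that share is no test of the estimate. No count test was run because the values are RPKM. Floors of 3 reads cover counting error only. The main fit did not use replicate numbers to pair the libraries. The 18 alternatives changed the pseudocount, filter, normalization, variance model, block, libraries fitted or fold limit, and left out each of the 8 libraries in turn. Promoter windows came from RefSeq. Tables were made in Python 3.11.15 (pandas 2.3.3, numpy 2.4.6, scipy 1.17.1) and plots with matplotlib 3.10.9.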

Additional observations from a re-analysis of the deposited data

Results flagged for a closer look

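In 5 members the difference between genotypes changed with induction, by the interaction test in limma and past both limits. The interaction, the log2 change on induction in KO minus that in WT, was -1.71 for *Etv4*, whose KO level was above WT before and below WT after induction. It was -1.19 for *Spry4*, which was 0.26 higher after induction in WT and 0.93 lower in KO. For *Fgf10* it was -1.13, with a rise that passed in WT and not in KO. For *Spred2* it was -1.04, with a rise in WT and a fall in KO, and it was short of the fold limit without any 1 of 3 libraries. For *Fgf14* it was 1.46, between 0.58 and 2.38 over the alternatives.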

How the results depend on the processing

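With a pseudocount of 1 RPKM, 1 tested FGF gene was called between genotypes in undifferentiated cells and 0 in differentiating cells (limma, 7772 of all genes at an unadjusted p under 0.05), 6 for induction in WT and 1 for the interaction, and of the further pathway genes 0 in differentiating cells, 15 for induction in WT and 1 for the interaction. Over all 15342 tested genes the calls in these comparisons also dropped, from 261, 507, 2198 and 947 to 99, 234, 1249 and 479. By the adjusted p with no fold limit, 14, 14, 18, 18 and 12 FGF genes and 35, 50, 67, 66 and 46 pathway genes differed (genotype in undifferentiated and differentiating cells, induction in WT and KO, interaction). Those were 56.0%, 56.0%, 72.0%, 72.0% and 48.0% of the tested FGF genes and 43.8%, 62.5%, 83.8%, 82.5% and 57.5% of the tested pathway genes. All genes stood at 32.2%, 40.7%, 64.4%, 72.9% and 39.4%. With a library left out, the genotype calls in differentiating cells ranged from 1 to 2 for FGF genes and from 0 to 2 for pathway genes. Under quantile normalization the WT induction value of *Spry4* turned to -0.0136. With the replicate number as a block, 4, 2, 10, 9 and 6 FGF genes and 3, 1, 23, 29 and 3 pathway genes were called. Over all genes 244, 504, 2194, 3511 and 922 were. Deviations of same-numbered libraries correlated at -0.0924 to 0.0304 over 15342 genes. Such values cannot show whether libraries of the same number share a pool or culture. Median centring moved the median of all genes by -0.10 for induction in WT. Of 501 alternative values for the 30 member values past both limits, 469 kept the call, 32 lost it and 0 reversed, and 15 of the 30 kept it in every alternative. Depth limited *Fgf21*, at or under the level of 3 reads in differentiating libraries, and *Fgf14*, at 0.0316 and 0.0540 RPKM in undifferentiated KO against 0.0132 to 0.0183 RPKM for 3 reads.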
